A study of Mus musculus with 4 samples.

Results

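The genes described here are neuropilin 1 and its relatives in the semaphorin system: the neuropilins Nrp1 and Nrp2, the semaphorins Sema4a, Sema4b, Sema4d and Sema7a, and the plexins Plxnb2, Plxnd1, Plxna3 and Plxnc1. They were chosen by gene symbol and make up 10 of the 24087 genes listed in the expression table. In splenic Treg cells of mice with Treg-specific deletion of Setd2, Plxnd1 transcripts were 1.96 times and Nrp1 transcripts 1.34 times those of control cells, and both genes passed the test over all genes. Sema4b and Sema4d were higher and Plxna3 was lower at an unadjusted p under 0.05 by limma, short of the adjusted threshold. At that unadjusted level 16.3% of all tested genes were higher and 18.4% lower.

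RNA-seq was performed on Treg cells sorted from the steady-state spleen as CD3+CD4+YFP+ cells, all from C57BL/6 mice. The mutant cells (KO) came from Foxp3Cre-YFPSetd2f/f mice and the control cells (CTRL) from littermates of the genotype Foxp3Cre-YFPSetd2f/+. Both genotypes carried the Foxp3Cre-YFP allele, in which the Foxp3 locus drives Cre and YFP, and CTRL cells also carried 1 floxed Setd2 allele, so 2 floxed copies were compared with 1 in Foxp3-expressing cells. There were 2 libraries per genotype, each from about 1000000 cells pooled from 2 mice. Expression is given as FPKM, fragments per kilobase of gene length scaled to a fixed number of mapped fragments, which corrects for gene length and library depth.

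Semaphorins are secreted or membrane-bound guidance proteins that were first studied in growing axons and that also act between immune cells. Plexins are their main receptors and carry an intracellular GTPase-activating domain that acts on small GTPases of the Ras and Rap family, while neuropilins are co-receptors with a short cytoplasmic tail that bind class 3 semaphorins and VEGF. On mouse Treg cells Nrp1 is a widely used surface marker of cells of thymic origin, and Sema4a on other immune cells is a known ligand for it.

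The deleted gene and the purity of the sort were examined first. Setd2, the H3K36 methyltransferase gene on chromosome 9 (GRCm38), was at 23.4 FPKM in CTRL 1 and 25.3 in CTRL 2, against 21.3 in KO 1 and 19.5 in KO 2, lower in both KO libraries but short of the threshold (log2 fold change -0.24, SE 0.076, adjusted p = 0.0970, limma). This value covers the whole gene and not the floxed part alone. By flow cytometry the paper found Setd2 protein abrogated in splenic Treg cells of KO mice. It also found H3K36me3 drastically reduced in them by western blot. All 8 Treg and T cell markers were expressed and none of them passed the test. Their summed level ran from 1787 to 1901 FPKM in CTRL and from 1819 to 1870 FPKM in KO. Within this sum 4 markers were lower and 1 was higher in both KO libraries, and the libraries of 3 overlapped. Of all tested genes 35.5% were lower and 29.0% higher in this sense. Foxp3 was at 120.6 and 139.8 FPKM in CTRL and 111.6 and 119.2 in KO. Il2ra was at 123.3 and 148.4 FPKM in CTRL and 95.4 and 117.3 in KO. The higher marker was Ikzf2, at 74.9 and 74.2 FPKM in CTRL and 81.6 and 87.0 in KO (adjusted p = 0.106, limma). It encodes Helios, which the paper names beside Nrp1 as a marker of thymic-derived Treg cells. CTRL 1 stood apart in the number of genes above 0, with 19100 against 15913 to 16410 in the other libraries. Myeloid markers were also present and differed between libraries within each genotype: the summed level of 7 markers was 207.1 and 126.1 FPKM in CTRL 1 and CTRL 2 and 270.9 and 101.6 FPKM in KO 1 and KO 2. All 7 were higher in library 1 than in library 2 of both genotypes, and none passed the test between genotypes.

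Within each genotype the 10 genes spanned a wide range of expression. FPKM is a value per length, so levels can be set against each other across genes. The gene lengths used are not given, so the order of close neighbours such as Plxnc1 and Plxnd1 is uncertain. In CTRL the order of mean FPKM was Sema4d at 75.4, Nrp1 at 59.6, Sema4b at 24.5, Sema4a at 18.7, Plxnc1 at 9.41, Plxnd1 at 8.45, Plxnb2 at 3.37, Plxna3 at 2.48, Sema7a at 1.09 and Nrp2 at 0.396. No neighbours in this order overlapped in their libraries. In KO the order was the same but for Plxnd1, which at a mean of 16.5 FPKM stood above Plxnc1 at 10.2 and could not be separated from Sema4a at 16.97, since their libraries overlapped.

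**Figure D1:**
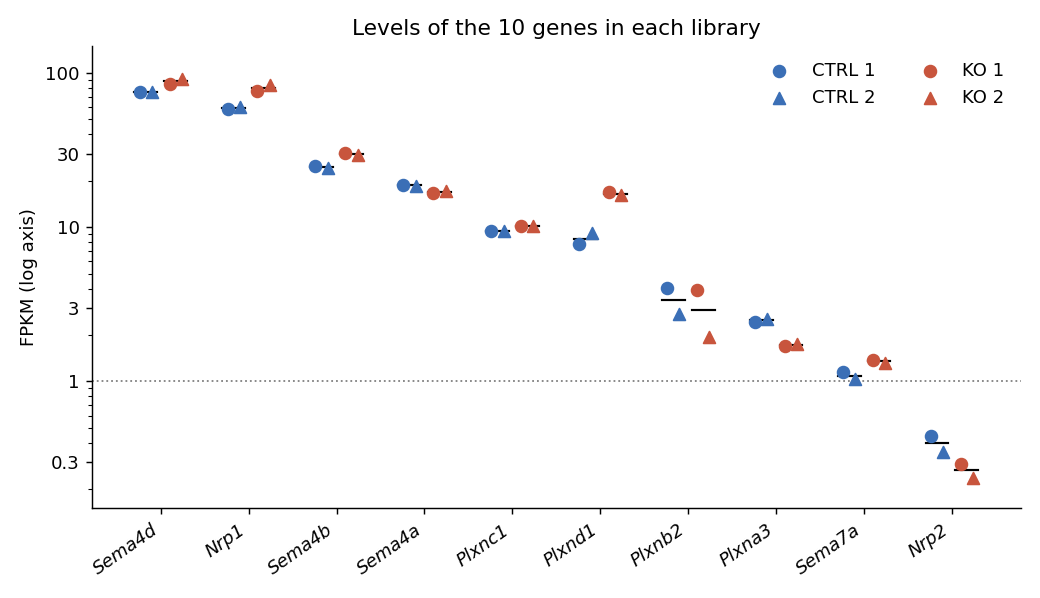
FPKM (log axis) of each of the 10 genes in every library, with CTRL in blue, KO in red, circles for library 1, triangles for library 2, a short bar at each group mean and a dotted line at 1 FPKM, the filter for testing. Plxnd1 and Nrp1 show KO libraries clear of CTRL libraries, Plxnb2 splits by library number in both genotypes, and all 4 values of Nrp2 lie under the line.

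To find out which of these genes differed between the genotypes, KO was compared with CTRL. The comparison took in all 11399 genes at 1 FPKM or more in at least 2 libraries. It used limma on log2(FPKM + 1), with Benjamini-Hochberg adjustment over all of them. Fold changes are on this log2(FPKM + 1) scale, which understates the change of genes near 1 FPKM. Of the 10 genes, 9 were tested, and Nrp2 was below the filter. Among the tested genes 2 were higher in KO at an adjusted p under 0.05, Nrp1 and Plxnd1, and 0 were lower, against a background of 5.10% of all tested genes higher and 4.65% lower. At an unadjusted p under 0.05, 4 were higher (Nrp1, Sema4b, Sema4d and Plxnd1) and 1 was lower (Plxna3), with 16.3% and 18.4% of all tested genes in these classes. Both KO libraries lay above both CTRL libraries for 6 of the 9 genes and below them for 2, where 29.0% and 35.5% of all tested genes did so, and the libraries of 1 gene, Plxnb2, overlapped. The median log2 fold change of the 9 genes was 0.17, beside -0.02 over all tested genes. The p-values rest on the spread between the 2 pooled libraries of each genotype, not between single mice. With so few libraries, limma draws the spread of each gene toward that of genes of like expression. In bulk RNA fewer cells expressing a gene and less RNA per cell cannot be told apart.

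**Figure D2:**
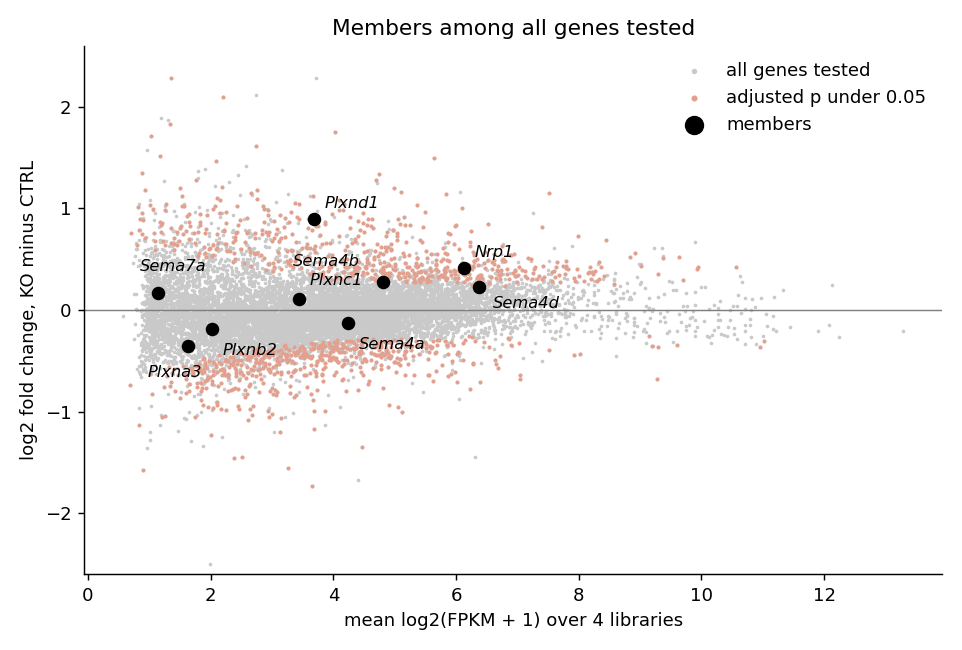
Log2 fold change (KO minus CTRL, FPKM + 1) of all 11399 tested genes against their mean log2(FPKM + 1) over the 4 libraries, with genes at an adjusted p under 0.05 in red and the 9 tested neuropilin, semaphorin and plexin genes of the set in black. Plxnd1 at 0.90 stands near the upper edge of the cloud, Nrp1 at 0.41 lies among the red points at high expression, and the other 7 lie between -0.35 and 0.28.

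The regions just upstream of the transcription starts of the 2 genes that passed, Nrp1 and Plxnd1, are printed here because these are the genes whose transcript level changed. They are the 250 bases before the RefSeq start on the strand of the gene (GRCm38.p6), outside annotated exons, at chr8:128358823-128359072 on the plus strand for Nrp1 and chr6:115995006-115995255 on the minus strand for Plxnd1. A longer annotated Nrp1 transcript begins further upstream, so the Nrp1 stretch lies in an intron of that transcript. Capitals mark the GC box, GGGCGG on either strand, the element bound by Sp1 family factors.
Nrp1: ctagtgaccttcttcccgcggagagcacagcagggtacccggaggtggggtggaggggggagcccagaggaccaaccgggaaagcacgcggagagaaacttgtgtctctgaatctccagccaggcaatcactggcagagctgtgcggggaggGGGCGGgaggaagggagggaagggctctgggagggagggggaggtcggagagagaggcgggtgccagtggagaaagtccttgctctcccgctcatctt
Plxnd1: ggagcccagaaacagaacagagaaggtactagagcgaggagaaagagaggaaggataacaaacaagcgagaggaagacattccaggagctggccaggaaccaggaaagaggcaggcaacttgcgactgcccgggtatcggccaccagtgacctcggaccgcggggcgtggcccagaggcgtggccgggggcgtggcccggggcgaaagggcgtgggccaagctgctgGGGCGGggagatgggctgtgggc
Each stretch held 1 GC box, and CpG dinucleotides numbered 11 in Nrp1 and 16 in Plxnd1. Over windows of 300 bases from 250 before to 50 after the start, all 10 genes had entries in the RefSeq table, with 17 promoters between them. A GC box was found in 14 of these 17, compared with 35.7% of all 32851 mouse promoters of that length. CpG dinucleotides numbered 14 in the Nrp1 window, 23 in that of Plxnd1 and 2 to 37 over the 17, beside a median of 7 over all promoters. The share with a GC box was not adjusted for base composition. None of the 17 held TATAAA (in 13.6% of all promoters), the forkhead motif TGTTTAC (3.65%), the GATA motif AGATAA (11.2%), the STAT motif TTCNNNGAA (8.30%), the cyclic AMP response element TGACGTCA (1.79%) or the ETS motif CCGGAAGT (3.89%). The E-box CACGTG was in 1 promoter, of Sema4b, and the AP-1 motif TGANTCA in 1, of Sema4d, while all promoters held them in 7.15% and 7.81% of cases. CCAAT was in 3 of the 17 (37.4% of all) and the RUNX motif TGTGGT in 2 (16.8% of all). All motifs were searched on both strands, promoters of a gene can overlap, and a match describes the letters only. The 2 genes that rose and the 8 that did not pass or were not tested were not compared on these features.

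Nrp1 (ENSMUSG00000025810, chromosome 8, 128358604 to 128503363, plus strand, GRCm38) was at 58.6 and 60.5 FPKM in the CTRL libraries and at 76.4 and 83.1 in the KO libraries. The libraries of the 2 genotypes did not overlap. The mean rose from 59.6 ± 1.31 to 79.7 ± 4.78 FPKM (SD, n = 2 per genotype), a log2 fold change of 0.41 (SE 0.064, 95% interval 0.25 to 0.58, adjusted p = 0.0375, limma). Without any 1 library the log2 fold change stayed between 0.35 and 0.47. Such a fit leaves 1 library in a genotype, so it cannot decide whether the call holds. In 10 of 12 other settings that used all libraries Nrp1 passed, over a range of adjusted p from 0.0167 to 0.0861 by limma. Over the whole fit 824 of 11399 genes (7.23%) had a higher log2 fold change. At least 11391 reads per library stood behind these values, a lower bound recovered from the steps of the FPKM values. Nrp1 shares 80 exon bases with the microRNA gene Mir1903 on the same strand.

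Plasmacytoid dendritic cells and endothelial cells also express Nrp1, so their markers were examined. Among the 6 dendritic and plasmacytoid dendritic cell markers Siglech, of plasmacytoid dendritic cells, was at 0.649 and 0.446 FPKM in CTRL and lower in KO, at 0.331 and 0.188 FPKM. Xcr1, of conventional dendritic cells, was higher in both KO libraries, at 0.863 and 0.622 FPKM in CTRL and 1.35 and 1.10 FPKM in KO (adjusted p = 0.170, limma). None of the 3 tested markers of the list passed, and the summed level of the list, mostly from the interferon-inducible Bst2, was 78.0 and 84.1 FPKM in CTRL and 83.7 and 98.4 FPKM in KO. Among the 7 endothelial and stromal markers Cdh5, encoding VE-cadherin, was higher in both KO libraries at 0.114 and 0.149 FPKM against 0.084 and 0.058 FPKM in CTRL, and Stab2, of sinusoidal endothelium, was at 1.66 and 0.703 FPKM in CTRL and 1.23 and 0.714 FPKM in KO. The endothelial receptor gene Tek was at 0 in 3 of 4 libraries and the collagen gene Col1a2 at 0 in KO 2. The summed level of that list, nearly all from Pecam1, which leukocytes also express, was 60.0 and 58.7 FPKM in CTRL and 50.4 and 54.5 FPKM in KO, and neither of its 2 tested genes, Pecam1 and Stab2, passed. The part of these cells in the levels of Nrp1 and Plxnd1 was not tested.

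Nrp2, the other neuropilin (ENSMUSG00000025969, chromosome 1, 62703285 to 62818695, plus strand), is best known as a co-receptor for Sema3f and VEGF-C. It was at 0.443 FPKM in CTRL 1 and 0.348 in CTRL 2, against 0.293 in KO 1 and 0.236 in KO 2, with at least 34 to 59 reads per library. Both KO values were below both CTRL values, opposite to Nrp1, but the gene was not tested, and in a fit of all genes above 0 its log2 fold change was -0.14 (SE 0.061, adjusted p = 0.278, limma). Nrp1 supplied 99.3% to 99.7% of the neuropilin FPKM in every library.

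The genes whose profile over the 4 libraries was nearest to that of Nrp1 were found by the root mean square distance of log2(FPKM + 1), centred on each gene's mean, among 8396 tested genes with a mean above 5 FPKM. They were Tomm6 (distance 0.00836), Clic1 (0.0164), Tpgs1 (0.0165), Taf10 (0.0187) and Epcam (0.0199). Tomm6, a subunit of the mitochondrial outer membrane import complex, was at 42.2 and 44.2 FPKM in the CTRL libraries and at 55.2 and 60.3 in the KO libraries. Epcam, encoding an epithelial adhesion molecule, was at 6.63 FPKM in CTRL 1 and 6.74 in CTRL 2, against 8.95 in KO 1 and 9.44 in KO 2. All 5 were higher in both KO libraries, which a profile near that of Nrp1 entails.

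Among the ligands, Sema4d gave the most transcripts in Treg cells. Sema4d (ENSMUSG00000021451, chromosome 13, 51685529 to 51793747, minus strand), also called CD100, is a membrane semaphorin of T cells that can be shed and that binds Plxnb1, Plxnb2 and CD72. Its level was 75.0 and 75.7 FPKM in CTRL and 85.6 and 91.8 FPKM in KO. KO lay above CTRL in both libraries (75.4 ± 0.50 against 88.7 ± 4.41 FPKM, SD, n = 2). The log2 fold change was 0.23 (SE 0.059, 95% interval 0.079 to 0.38), which did not pass the threshold (adjusted p = 0.0673, limma).

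Sema4b (ENSMUSG00000030539, chromosome 7, 80186841 to 80226527, plus strand), a membrane semaphorin of the same class, was at 24.9 and 24.1 FPKM in the CTRL libraries and at 30.5 and 29.3 in the KO libraries. The libraries did not overlap (24.5 ± 0.51 against 29.9 ± 0.84 FPKM, SD, n = 2). Its log2 fold change of 0.28 (SE 0.059, 95% interval 0.13 to 0.43) lay just outside the threshold with an adjusted p of 0.0509 by limma, and in 6 of 12 other settings that used all libraries it was inside, over a range of adjusted p from 0.0319 to 0.0948.

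Sema4a (ENSMUSG00000028064, chromosome 3, 88435959 to 88461182, minus strand), a ligand of Nrp1, was lower in KO, unlike the other class 4 semaphorins of the set. It was at 18.7 FPKM in CTRL 1 and 18.6 in CTRL 2, against 16.6 in KO 1 and 17.3 in KO 2. Both KO values lay below both CTRL values, yet the difference was small and did not pass (18.7 ± 0.043 against 16.97 ± 0.47 FPKM, log2 fold change -0.13, SE 0.061, 95% interval -0.29 to 0.027, adjusted p = 0.204, limma). Sema4a shares 73 exon bases with the microRNA gene Mir7011 on the same strand.

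Sema7a (ENSMUSG00000038264, chromosome 9, 57940112 to 57962865, plus strand) encodes a GPI-anchored semaphorin that binds Plxnc1 and, through integrins, monocytes. It was at 1.14 and 1.03 FPKM in the CTRL libraries and at 1.38 and 1.32 in the KO libraries, near the filter, with at least 39 to 53 reads per library. KO was above CTRL, but at this depth the interval of the log2 fold change, -0.15 to 0.48 around 0.17, included 0 (SE 0.12, adjusted p = 0.379, limma).

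Sema4d supplied 56.3% to 59.4% of the FPKM summed over all 20 semaphorin genes, with no separation between genotypes. The share of Sema4a was 14.0% and 14.3% in CTRL and 11.0% and 11.2% in KO, and that of Sema4b was 18.7% and 18.5% in CTRL and 20.1% and 19.0% in KO. The summed semaphorin level itself was 133.2 and 130.7 FPKM in CTRL and 151.5 and 154.5 FPKM in KO.

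Among the receptors of the set, Plxnd1 was the one that passed the test. Plxnd1 (ENSMUSG00000030123, chromosome 6, 115954811 to 115995005, minus strand) encodes the plexin that binds Sema3e without a neuropilin and is known from vessel patterning and thymocyte migration. It was at 7.74 FPKM in CTRL 1 and 9.15 in CTRL 2, against 16.9 in KO 1 and 16.1 in KO 2. Both KO libraries were well above both CTRL libraries, and the gap between genotypes was wider than the gap between replicates. The mean rose from 8.45 ± 1.00 to 16.5 ± 0.54 FPKM (SD, n = 2), a log2 fold change of 0.90 (SE 0.095, 95% interval 0.65 to 1.14, adjusted p = 0.0310, limma). Over the whole fit 111 of 11399 genes (0.974%) had a higher log2 fold change. In 11 of 12 other settings that used all libraries Plxnd1 passed, over a range of adjusted p from 0.0087 to 0.0860 by limma. Without any 1 library the log2 fold change of Plxnd1 was 0.79 to 1.00, and here too such a fit cannot decide the call. At least 1754 reads per library stood behind the values, and GENCODE vM21 annotates no gene that overlaps Plxnd1. Sema3e, the gene of the ligand named above, was at or under 0.040 FPKM in every library, which does not cover other ligands.

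Plxnc1 (ENSMUSG00000074785, chromosome 10, 94790866 to 94944835, minus strand), the plexin for Sema7a, was at 9.39 and 9.43 FPKM in the CTRL libraries and at 10.2 FPKM in both KO libraries. KO was above CTRL by a small margin that did not pass (log2 fold change 0.11, SE 0.067, 95% interval -0.064 to 0.28, adjusted p = 0.309, limma). Plxnc1 shares 115 exon bases with an unconfirmed transcript, Gm48718, on the same strand.

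Plxna3 (ENSMUSG00000031398, chromosome X, 74329066 to 74344689, plus strand), a partner of neuropilins in class 3 semaphorin receptors, was at 2.44 and 2.53 FPKM in the CTRL libraries and at 1.70 and 1.75 in the KO libraries. The libraries did not overlap and replicates lay close together (2.48 ± 0.065 against 1.73 ± 0.041 FPKM, SD, n = 2). The log2 fold change was -0.35 (SE 0.10, 95% interval -0.62 to -0.084, adjusted p = 0.0875, limma). It passed only with limma-voom on whole reads recovered from the FPKM (-0.53, adjusted p = 0.0246), 1 of 11 other settings with all libraries.

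Plxnb2 (ENSMUSG00000036606, chromosome 15, 89155549 to 89180788, minus strand), a receptor for Sema4c and Sema4d that many cell types express, was at 4.01 FPKM in CTRL 1 and 2.73 in CTRL 2, against 3.91 in KO 1 and 1.93 in KO 2. Here the split ran by library number and not by genotype: library 1 was 1.47 times library 2 in CTRL and 2.02 times in KO. The genotypes overlapped (3.37 ± 0.90 against 2.92 ± 1.399 FPKM, SD, n = 2; log2 fold change -0.19, SE 0.29, 95% interval -0.92 to 0.54, adjusted p = 0.678, limma). The direction turned when CTRL 1 (0.023) or KO 2 (0.18) was left out.

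Myeloid markers were also higher in library 1 of both genotypes. Csf1r, the receptor of macrophage colony-stimulating factor, was at 34.9, 20.9, 34.7 and 16.7 FPKM in CTRL 1, CTRL 2, KO 1 and KO 2, and the macrophage gene Adgre1 (F4/80) was at 9.23, 6.46, 9.04 and 4.09 FPKM. The 7 markers summed to 126.1 to 207.1 FPKM in CTRL and 101.6 to 270.9 FPKM in KO, with the neutrophil gene S100a8 at 0 in CTRL 2. The ratio of library 1 to library 2 for this sum was 1.64 in CTRL and 2.67 in KO. A ratio of at least 1.4 in both genotypes, a limit chosen after seeing the values, was met by 322 of 11399 genes (2.82%) and by 2 of the 16 tested genes of the whole family, Plxnb2 and Sema6d. For Nrp1 the ratio was 0.97 in CTRL and 0.92 in KO, and for Plxnd1 0.85 and 1.05. The part of myeloid RNA in the levels of Plxnb2, Sema6d, Nrp1 and Plxnd1 was not tested.

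**Figure D3:**
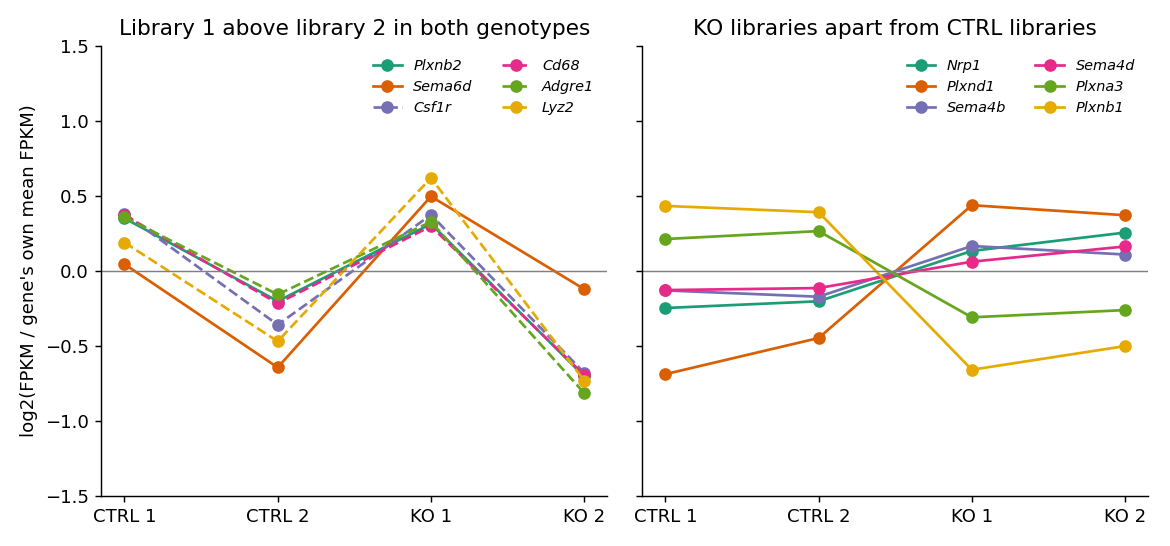
Log2 of FPKM over the gene's own mean in the 4 libraries, for genes higher in library 1 of both genotypes (left; dashed lines are the myeloid markers Csf1r, Cd68, Adgre1 and Lyz2) and for genes whose KO libraries lay apart from the CTRL libraries (right). Plxnb2 runs along the myeloid markers, down from CTRL 1 to CTRL 2 and from KO 1 to KO 2, while Nrp1 and Plxnd1 step up between CTRL and KO and Plxna3 and Plxnb1 step down.

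Plxnd1 made up a larger share of the plexin transcripts in both KO libraries. It was 27.4% and 32.7% of the FPKM summed over the 9 plexin genes in CTRL and 46.2% and 48.9% in KO. Plxnc1, the leading plexin in both CTRL libraries at 33.3% and 33.7%, was 28.0% and 30.9% in KO. The summed plexin level was 28.2 and 28.0 FPKM in CTRL and 36.6 and 33.0 FPKM in KO.

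**Figure D4:**
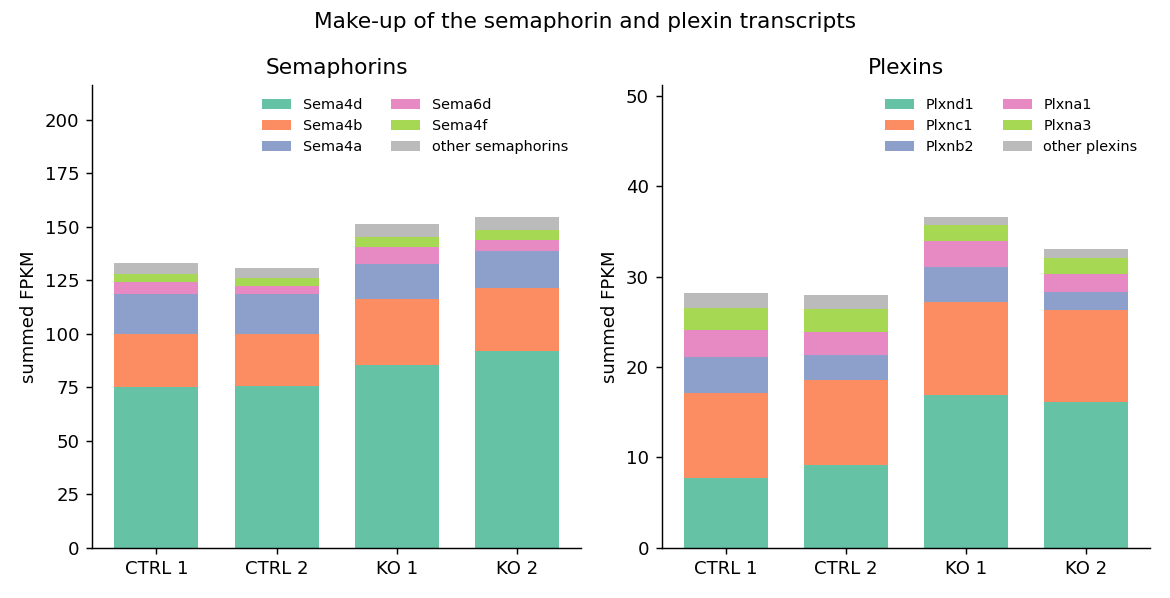
Summed FPKM of the 20 semaphorin genes (left) and of the 9 plexin genes (right) in each library, stacked by gene from 0. The Plxnd1 block of the plexin bars is larger in both KO libraries (46.2% and 48.9%) than in the CTRL libraries (27.4% and 32.7%), while Sema4d makes up at least 56.3% of every semaphorin bar.

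The rest of the family was examined in the same fit. Of all 31 neuropilin, semaphorin and plexin genes 16 passed the filter, of which 2 were higher (Nrp1 and Plxnd1) and 0 lower in KO, and 14 did not pass the test, beside 5.10% and 4.65% of all tested genes. At an unadjusted p under 0.05, 5 were higher and 2 lower (16.3% and 18.4% of all). The median log2 fold change was 0.20, beside -0.02 over all tested genes. KO lay above CTRL in 9 (29.0% of all), below in 3 (35.5% of all) and overlapped in 4. The 15 genes under the filter, at most 0.459 FPKM in any library, took in every class 3 semaphorin but Sema3d, both class 5 semaphorins, and Plxna2, Plxna4 and Plxnb3. By class, 0 of 9 tested semaphorins (3 higher and 0 lower at an unadjusted p under 0.05) and 1 of 6 tested plexins passed with limma, with median log2 fold changes of 0.22 and -0.16.

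Plxnb1, the high-affinity receptor of Sema4d, had the lowest log2 fold change of the 16 tested family genes. It was at 1.52 and 1.47 FPKM in the CTRL libraries and at 0.711 and 0.794 in the KO libraries, with no overlap (1.495 ± 0.031 against 0.752 ± 0.058 FPKM, SD, n = 2). Its log2 fold change of -0.51 (SE 0.12, 95% interval -0.83 to -0.19) did not pass (adjusted p = 0.0621, limma), but it did without the intensity trend (adjusted p = 0.0453) and with limma-voom (log2 fold change -0.99, adjusted p = 0.0147). With a pseudocount of 0.1 in place of 1 its log2 fold change was -0.91. Plxnb1 shares 257 exon bases with an antisense gene, Gm7628, and whether counting used strand is not given in the sources used here.

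Cd72, the other Sema4d receptor of lymphocytes and best known from B cells, was at 9.72 FPKM in CTRL 1 and 8.74 in CTRL 2, against 6.93 in KO 1 and 5.67 in KO 2 (log2 fold change -0.49, SE 0.12, adjusted p = 0.0591, limma), lower in both KO libraries and short of the threshold, which it passed in 4 of 12 other settings with all libraries. It overlaps Tesk1 on the other strand over 1423 exon bases. The 6 B cell markers summed to 22.8 and 19.0 FPKM in CTRL and 33.9 and 19.2 FPKM in KO, and none of the 4 tested passed.

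The other tested semaphorins had positive log2 fold changes between 0.20 and 0.41, none of which passed. Sema6d, a membrane semaphorin expressed by T cells, was at 5.79 and 3.59 FPKM in the CTRL libraries and at 7.92 and 5.16 in the KO libraries. The genotypes overlapped and library 1 was 1.61 and 1.54 times library 2 (log2 fold change 0.41, 95% interval -0.25 to 1.07, adjusted p = 0.315, limma). Leaving out 1 library at a time moved the log2 fold change from 0.13, without CTRL 2, to 0.69, without CTRL 1. Sema4f was at 3.72 FPKM in CTRL 1 and 3.82 in CTRL 2, against 4.52 in KO 1 and 4.69 in KO 2, higher in both KO libraries (log2 fold change 0.23, adjusted p = 0.130, limma). Sema3d, Sema6c and Sema4c were between 0.717 and 1.96 FPKM, with log2 fold changes of 0.22, 0.20 and 0.20 and adjusted p of 0.285, 0.391 and 0.507 by limma. Plxna1, a class 3 semaphorin receptor, was at 2.95 and 2.603 FPKM in the CTRL libraries and at 2.95 and 2.05 in the KO libraries and overlapped (log2 fold change -0.12, adjusted p = 0.628, limma).

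**Figure D5:**
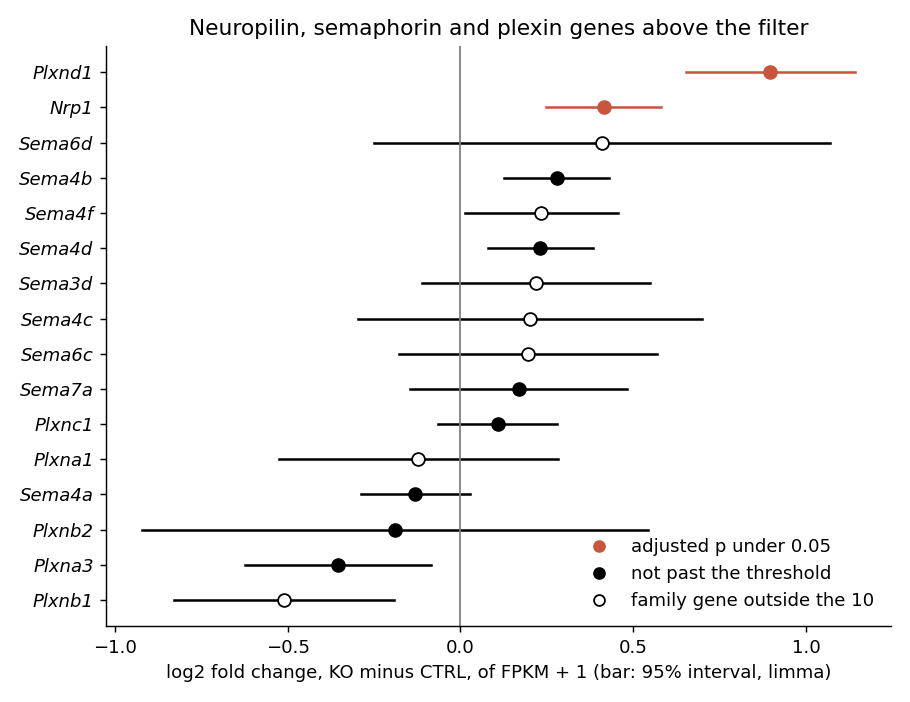
Log2 fold change (KO minus CTRL, FPKM + 1) with its 95% interval by limma for the 16 tested family genes, with genes past an adjusted p of 0.05 in red, the other genes of the set of 10 in black and family genes outside it as open circles. The intervals of Plxnd1 and Nrp1 lie to the right of 0 and in red, those of Sema4b, Sema4f and Sema4d lie right of 0 without passing, and those of Plxna3 and Plxnb1 lie left of 0 without passing.

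Signalling genes downstream of plexins and neuropilins were taken as a list of 34, of which 23 were tested. Of these 1 rose (Cfl1), 1 fell (Arhgef12) and 21 did not pass, with a median log2 fold change of 0.07, beside 5.10% higher and 4.65% lower among all tested genes. At an unadjusted p under 0.05, 6 were higher and 2 lower, where all tested genes gave 16.3% and 18.4%. Cfl1 encodes cofilin, the actin-severing protein at the end of the LIM kinase branch of semaphorin signalling, and was at 1315 FPKM in CTRL 1 and 1295 in CTRL 2, against 1638 in KO 1 and 1870 in KO 2 (log2 fold change 0.42, SE 0.085, adjusted p = 0.0462, limma). Arhgef12 encodes LARG, a RhoA exchange factor that binds B-class plexins, and was at 6.42 and 6.27 FPKM in the CTRL libraries and at 4.47 and 4.04 in the KO libraries (log2 fold change -0.48, SE 0.088, adjusted p = 0.0416, limma). Both genes had libraries apart. Without any 1 library the log2 fold change was 0.33 to 0.52 for Cfl1 and -0.54 to -0.43 for Arhgef12. Cfl1 shares 468 exon bases with Snx32 and Arhgef12 1209 with the pseudogene Gm5831, each on the other strand.

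Other steps of the pathway did not pass. Rhoa (log2 fold change 0.03, adjusted p = 0.796, limma) and Rac1 (0.12, adjusted p = 0.172), the GTPases that plexins engage, and the LIM kinase genes Limk1 (0.05, adjusted p = 0.756) and Limk2 (0.04, adjusted p = 0.690) were expressed in all libraries. Fyn, a Src family kinase used by plexin A receptors and by the T cell receptor, was at 167.7 FPKM in CTRL 1 and 171.8 in CTRL 2, against 201.0 in KO 1 and 195.7 in KO 2 (0.22, adjusted p = 0.0577). Gipc1, which binds the cytoplasmic tail of Nrp1, was at 22.5 and 25.4 FPKM in the CTRL libraries and at 24.8 and 27.9 in the KO libraries and overlapped (0.13, adjusted p = 0.360). The beta 1 integrin Itgb1, a receptor of Sema7a, was at 173.6 FPKM in CTRL 1 and 173.2 in CTRL 2, against 191.3 in KO 1 and 227.8 in KO 2 (0.27, adjusted p = 0.118).

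VEGF ligands and receptors, the other partners of neuropilins, were mostly under the filter. Of 8 genes only Vegfb was tested, at 7.87 and 7.48 FPKM in the CTRL libraries and at 8.59 and 8.01 in the KO libraries (log2 fold change 0.10, adjusted p = 0.417, limma). The other 7 were at most 0.967 FPKM, and the VEGF receptor genes Flt1, Kdr and Flt4 were at most 0.131 FPKM in any library.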

How the data were processed

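RNA was taken from splenic CD3+CD4+YFP+ cells in 2 CTRL and 2 KO libraries, poly(A)-selected and sequenced as 150 bp pairs. The deposited values are FPKM per gene, made by the authors, and FPKM was used as deposited. The submitters' processing notes name FastQC, HISAT2 2.2.1, featureCounts 2.0.1, edgeR 3.34.0 and the build mm10, and the gene lengths and strand setting behind the FPKM are not given in the sources used here. The columns named WT were read as CTRL, and unused value columns numbered 0.

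The FPKM steps gave whole reads for 19888 of 19888 genes above 0 (100%, tolerance at most 0.003). Recovered reads are lower bounds and summed to at least 30578092 to 33186372 per library. Since counts were not analysed directly, precision was judged from the replicates.

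Genes under 1 FPKM in 3 or more libraries were left out, which kept 11399. Log2(FPKM + 1) was fitted with limma 3.58.1 (R 4.3.3; lmFit, eBayes with an intensity trend), two-sided, with Benjamini-Hochberg adjustment over all genes and a threshold of 0.05. Covariates were not used. The script was tested on simulated data. Coordinates and overlaps came from GENCODE vM21 (GRCm38; 24002 of 24087 genes matched), and promoters from the RefSeq table (GRCm38.p6).

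The genes, lists and tests were chosen with earlier results of these data known. Genes named in the text were the 10 members, the other family genes above the filter, partner genes past the threshold, Setd2, and the 5 genes nearest to Nrp1. Other partner genes (Cd72, Fyn, Gipc1, Itgb1, Rhoa, Rac1, Limk1, Limk2 and the VEGF genes) and markers were named after their values were seen. Alternatives covered the pseudocount, the filter, the scaling, the variance model, limma-voom on recovered reads, exon length, GC content, the replicate number as a block and leaving out each library. CD8 T and NK cell markers summed to 13.6 to 15.5 FPKM over the 4 libraries and erythroid and platelet markers to 8.11 to 41.3 FPKM, with no gene of either list past the threshold.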

Additional observations from a re-analysis of the deposited data

How the results depend on the processing

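Of all genes 581 were higher and 530 lower in KO, of the 10 genes 2 and 0, of the family 2 and 0, and of the 46 partner genes 1 and 1. With all genes above 0 tested, limma called 0 higher and 0 lower (2212 and 2251 at an unadjusted p under 0.05), and 0 of the 10 genes, of the family and of the partners in either direction. Without the intensity trend 315 genes were higher over the table, 1 of the 10, 1 higher and 1 lower in the family and 0 partners higher. With limma-voom on recovered reads, which are lower bounds, 881 were higher and 1008 lower, with 1 of the 10 lower, 2 of the family lower, and 3 partners higher and 2 lower. With the exon length trend removed 352 were lower over the table and 0 partners passed in either direction, and with the GC trend removed 3 partners were higher. A mean FPKM above 5 gave 2 partners lower, as did robust eBayes. Higher calls made up 52.3% of all calls, and 46.8% to 58.1% under the other scalings of the libraries. Leaving out 1 library left 0 to 1 genes higher and 0 to 1 lower over the table by limma (1342 to 1423 and 1292 to 1621 at an unadjusted p under 0.05), and 0 of the 10 genes, 0 of the family and 0 of the partners in either direction. For single genes, the log2 fold change crossed 0 as single libraries were left out in Plxnb2 (-0.56 to 0.18; 0.023 without CTRL 1 and 0.18 without KO 2), Sema4c (-0.035, without KO 1, to 0.44) and Plxna1 (-0.31 to 0.065, without KO 2). With all libraries in use 200 single-gene values kept direction and side of the threshold, 11 passed it newly and 8 lost it. Nrp1 lost it with all genes tested and without the trend, at adjusted p up to 0.0861 by limma, and Plxnd1 with all genes tested, at 0.0860. The cause of these changes was not tested.

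The labels tie no replicate number to a litter or a day, and same-numbered libraries deviated together with a Pearson r of 0.34 and a Spearman rho of 0.055 across genes, which are not independent. A replicate block in the fit gave 968 higher and 805 lower calls over the table, and there 4 of the family were higher (Nrp1, Plxnd1, Sema4b and Sema6d, the last at an adjusted p of 0.0438 by limma) and 1 lower (Plxnb1, adjusted p of 0.04996), and 2 partners were lower.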
